A study of Mus musculus with 18 samples.

Results

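The comparison described here was between whole lenses of 14-day-old Cryab-R120G-homo mice and of their 14-day-old Cryab-WT counterparts, with 3 RNA-seq libraries of each, 6 of the 18 libraries of the series. Cryab-R120G-homo mice carry a knock-in mutation in both copies of Cryab, made with embryonic stem cells, that replaces arginine with glycine in αB-crystallin. All mice were recorded as strain C57BL/6J, and each library held RNA from several pooled lenses, so that a library is a pool and not an animal, and p-values measure the spread between such pools. The 3 Cryab-R120G-het libraries, with 1 mutant copy at the same age, were used for comparison, as were the Cryaa-WT and Cryaa-R49C-homo libraries, which carry no or 2 mutant copies of Cryaa and are 2 days old. The genotype field of the 6 Cryab mutant libraries names the other line, so the groups were taken from the sample titles. The count totals lay between 18238553 and 27620319 reads in WT (median 27511923) and between 19738366 and 29639719 in homo (median 22049938). The scaling factors of edgeR's trimmed mean of M values (TMM) were 0.488 to 0.545 in WT and 0.593 to 0.774 in homo, and 1 noncoding gene, Gm42418, took 13.7 to 21.4% of the WT counts and 7.97 to 23.2% of the homo counts.

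αB-crystallin is a small heat shock protein that holds unfolding proteins in solution and is among the most abundant proteins of the lens, where it forms large assemblies with αA-crystallin. Lens fibre cells fill with crystallins, lose their nuclei and organelles and keep their proteins for life, and a single layer of epithelial cells divides and feeds new fibres. The R120G form of αB-crystallin is prone to aggregation and is linked to cataract and to a desmin-related muscle disease.

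The mutated gene itself did not pass the threshold. Cryab (chr9:50751325-50756636 in GRCm38, plus strand) had 44210, 46210 and 32940 counts relative to the TMM-scaled library size (CPM) in WT replicates 1 to 3 and 30540, 32280 and 35830 in homo, and the ranges overlapped. Its log2 fold change was -0.32 ± 0.26 (SE, 3 libraries against 3, false discovery rate, FDR, 0.943). Counts per gene do not read the substituted codon, so they check the amount of transcript and not the genotype. Hspb2, a small heat shock protein gene that starts beside Cryab on the opposite strand, had 30.2, 22.6 and 24.6 CPM in WT and 24.1, 26.4 and 21.9 in homo (log2 fold change -0.09 ± 0.22, FDR 0.985). The exons of both genes share 252 bases, and the strand setting of the read counting was not given in the sources used here. Only unambiguous reads were counted, so whether reads in those bases were assigned by strand or left out is not known. Cryaa, the gene of the partner subunit, had 278400, 295800 and 254200 CPM in WT and 224400, 281100 and 214000 in homo (log2 fold change -0.20 ± 0.32, FDR 0.977).

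WT replicate 1 stood apart from the other two WT libraries. It carried transcripts of immediate-early genes, which cells switch on within minutes of a stimulus, and of retina. Fos, a subunit of the AP-1 transcription factor, had 859.5, 0.467 and 0.297 CPM in WT, 0.721, 0.392 and 1.75 in het and 0.59, 1.26 and 0.994 in homo. Egr1, a zinc-finger transcription factor of the same kind, had 288, 1.2 and 1.56 CPM in WT and 0.917, 1.16 and 1.76 in homo. Junb had 123, 0.133 and 0.0742 CPM in WT and 0.0655, 0.55 and 0.153 in homo, and Fosb was counted 872, 0 and 0 times in WT and 0, 3 and 0 times in homo. In each of these genes WT replicate 1 was the single high library among all 9 of the line. The summed CPM of the 30 immediate-early genes listed was 2750, 250 and 212 in WT, 204, 207 and 267 in het and 210.4, 280 and 221 in homo.

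Retinal transcripts followed another pattern. Gnat1, a transducin subunit, had 196, 5.4 and 27.8 CPM in WT, 172, 77.5 and 30.6 in het and 341, 184 and 61.2 in homo. WT replicate 1 thus lay within the homo range, whereas WT replicates 2 and 3 lay below every homo library. Over the 36 photoreceptor genes the summed CPM was 1620, 143 and 262 in WT, 1180, 627 and 306 in het and 2163, 1131 and 488 in homo, and the number of list members without a single read was 0, 5 and 0 in WT and 0, 0 and 0 in homo. Over the 39 inner retina and Muller glia genes it was 165, 32.8 and 47.9 in WT, 174, 106 and 57.4 in het and 296, 157 and 94.2 in homo. Replicate 1 was the highest library of its group for both lists in WT, het and homo. Results that rest on WT replicate 1 are given below with and without it. The plot of summed list levels by library shows WT replicate 1 apart from replicates 2 and 3 in both respects.

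**Figure D1:**
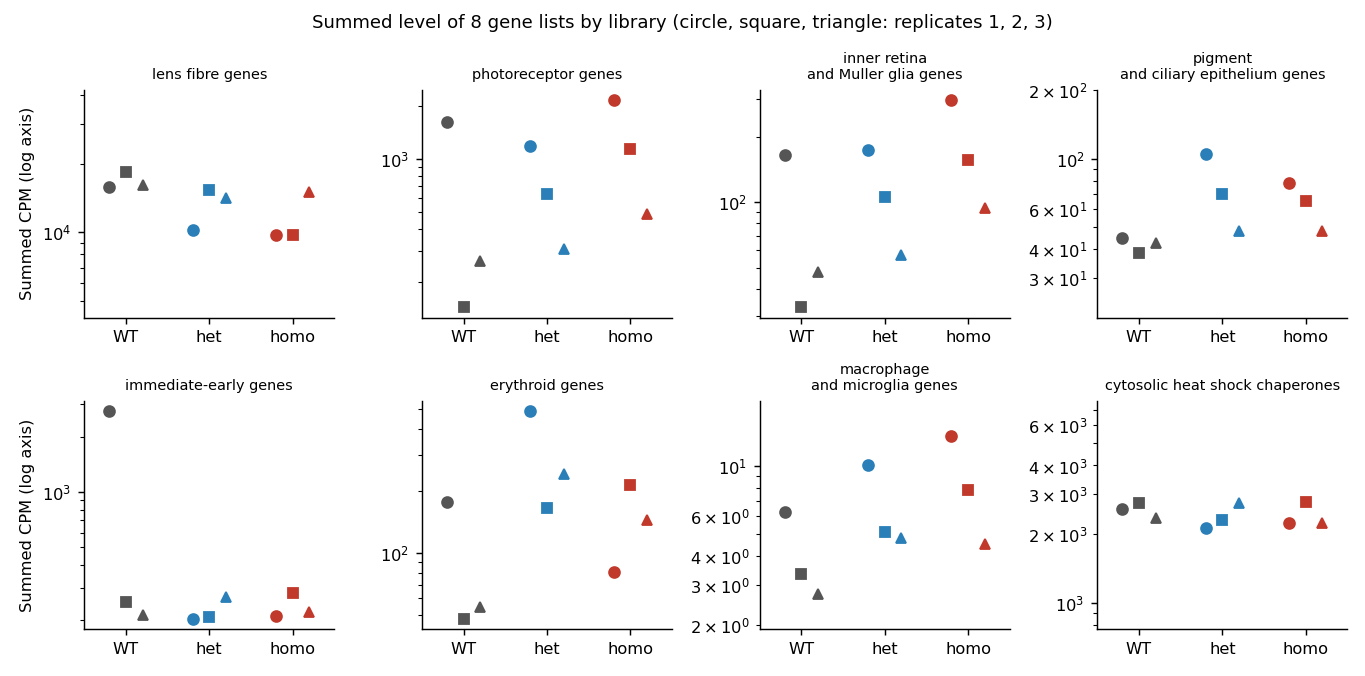
Summed CPM after TMM scaling (log axis) of 8 gene lists in the 3 WT, 3 het and 3 homo libraries of the Cryab-R120G line, with 1 symbol per library (circle, square and triangle for replicates 1, 2 and 3). WT replicate 1 reached 2750 for the immediate-early genes, above the other 8 libraries, and 1620 for the photoreceptor genes, within the homo range.

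Few genes separated homo from WT lenses. Of 13938 genes tested, 4 rose (0.0287%) and 3 fell (0.0215%) at an FDR of at most 0.05, 0.0502% in all, while 850 genes (6.1%) had an unadjusted p under 0.05. Eno1b, Wdfy1, Slc6a13 and A830082K12Rik rose, and Bco2, Hspa8 and Il18 fell. All 7 had homo libraries entirely above or entirely below the WT libraries, a separation that 9% of all genes showed. Scaling by library size without TMM, which put the median of all genes at 0.37 on the log2 scale, beside 0.0042 with TMM, gave 7 higher and 1 lower, and Hspa8 (FDR 0.234) and Il18 (FDR 0.378) lost the call. A fit that held the replicate number as a block called 18 genes (0.129%), 13 higher (0.0933%) and 5 lower (0.0359%). Leaving out WT replicate 1 gave 13 (0.0894%), of which 10 were higher (0.0687%) and 3 lower (0.0206%). The 9 Cryab libraries fitted alone gave 7 genes, of which 3, Bco2, Eno1b and Il18, were among those above, and the 6 compared libraries alone gave 2, with Bco2 the shared one. DESeq2 called 19 genes (0.136%), 13 higher (0.0933%) and 6 lower (0.043%), and the likelihood-ratio test called 257 (1.84%), 224 higher (1.61%) and 33 lower (0.237%).

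Bco2, which encodes a mitochondrial enzyme that cleaves carotenoids, fell furthest. It had 4.63, 7.61 and 6.23 CPM in WT, 1.71, 3.33 and 3.57 in het and 0.655, 0.605 and 0.841 in homo. No library of one group reached the range of another, with het between WT and homo. The level in homo was 8.87-fold lower than in WT (log2 fold change -3.15 ± 0.47, FDR 0.00736, and -3.31 with FDR 0.00583 without WT replicate 1). Leaving out 1 of the 6 libraries at a time kept the fold change between -3.31 and -2.97, and the call was kept in 2 of the 6 fits, with FDR up to 0.0981.

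Il18, the next gene along the chromosome and the gene of an inflammatory cytokine, fell with it. Il18 had 9.14, 8.74 and 10.9 CPM in WT, 4.06, 7.11 and 6.66 in het and 3.6, 3.63 and 2.14 in homo, again with 3 ranges that did not touch. The level in homo was 3.05-fold lower (log2 fold change -1.61 ± 0.28, FDR 0.0347), and the call was kept in 1 of 6 fits that left out a library. Bco2 (chr9:50533087-50555181, minus strand) and Il18 (chr9:50554827-50581840, plus strand) run in opposite directions and their annotated spans share 355 bases, 50554827 to 50555181. Their annotated exons share 0 bases.

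The sequence before each start is shown because both genes fell and sit beside each other. RefSeq promoter windows (GRCm38.p6) matched 4 of the 7 genes past the threshold, all but Eno1b, Hspa8 and Wdfy1, and also Layn, a neighbour of Cryab described below. The stretches printed are the part of the 250 bases before the RefSeq start that lies outside annotated exons, 5′ to 3′ on the strand of the gene. They cover chr9:50555182-50555388, minus strand for Bco2, chr9:50554450-50554699, plus strand for Il18 and chr9:51077095-51077344, minus strand for Layn. The Il18 stretch ends at 50554699, short of the Il18 start given above (50554827), and lies inside the annotated span of Bco2. Bco2 has a second annotated start with its own window (chr9:50553663-50553912), which holds 1 match to TATAAA and none to CCAAT and is not printed. Capitals mark matches, on either strand, to CCAAT or TATAAA.
Bco2: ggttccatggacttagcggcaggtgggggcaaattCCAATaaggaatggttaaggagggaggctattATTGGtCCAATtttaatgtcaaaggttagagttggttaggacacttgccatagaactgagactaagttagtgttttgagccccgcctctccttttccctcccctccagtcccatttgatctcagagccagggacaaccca
Il18: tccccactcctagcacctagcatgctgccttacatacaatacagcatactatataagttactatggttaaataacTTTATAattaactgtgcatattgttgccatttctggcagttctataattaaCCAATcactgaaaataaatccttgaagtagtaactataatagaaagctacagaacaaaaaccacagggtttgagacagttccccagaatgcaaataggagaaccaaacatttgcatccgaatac
Layn: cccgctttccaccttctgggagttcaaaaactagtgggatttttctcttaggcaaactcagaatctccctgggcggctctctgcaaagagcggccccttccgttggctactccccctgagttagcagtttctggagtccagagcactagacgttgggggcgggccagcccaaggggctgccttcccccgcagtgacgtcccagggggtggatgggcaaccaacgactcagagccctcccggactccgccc
The Bco2 stretch holds 3 matches to CCAAT, the middle one on the opposite strand, and the Il18 stretch holds 1 match to CCAAT and 1 to TATAAA. The Layn stretch holds none of the 4 motifs searched, which also included TGCTGA, the core of the MAF site, and GAANNTTC, a unit of the heat shock element, and no match overlapped another. Of 32851 windows of 250 bases, 33.8% held CCAAT, 12.4% TATAAA, 16.1% TGCTGA and 6.69% GAANNTTC. The GC content was 48.3% for Bco2, 35.6% for Il18 and 61.2% for Layn.

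Hspa8, the constitutive member of the Hsp70 chaperone family, which folds new proteins and strips clathrin from vesicles, was the third gene to fall. It had 149, 222 and 212 CPM in WT, 106, 137 and 170.3 in het and 73.9, 58.9 and 29.9 in homo. All homo libraries lay below all WT and het libraries, and the het and WT ranges overlapped. The level was 3.58-fold lower in homo (log2 fold change -1.84 ± 0.29, FDR 0.0074, and FDR 0.00583 without WT replicate 1). Hspa8 starts 9.95 Mb from Cryab on the same chromosome (chr9:40800984-40810087). The call was kept in 3 of 6 fits that left out a library, with FDR up to 0.0705, and was lost at about the same fold change with the 9 Cryab libraries alone (FDR 0.293) and with the 6 compared libraries alone (FDR 0.52).

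Among the genes that rose, Eno1b had the smallest p. Eno1b is a retrotransposed copy of the glycolytic enzyme gene Eno1, so reads may be shared between the copies and its level is uncertain. It had 0.661, 0.601 and 0.668 CPM in WT, 5.86, 3.92 and 5.89 in het and 5.83, 8.03 and 2.37 in homo, and het and homo lay together above WT. The level in homo was 8.44-fold higher (log2 fold change 3.08 ± 0.40, FDR 0.00169), and this was the one gene called in all 6 fits that left out a library, though not with the 6 compared libraries alone (FDR 0.0605). Eno1 itself, named after its values were seen, had 92.1, 98.1 and 85.3 CPM in WT and 85.3, 84.2 and 65.2 in homo (FDR 0.967).

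Slc6a13, which encodes a transporter of GABA and taurine, had 0.881, 0.0667 and 0.816 CPM in WT, 4.06, 3.33 and 2.66 in het and 3.87, 3.69 and 3.36 in homo (log2 fold change 2.71 ± 0.49, FDR 0.0353). Wdfy1, whose product binds endosomal lipids and takes part in Toll-like receptor signalling, had 0.881, 1.27 and 1.34 CPM in WT, 3.33, 1.11 and 4.13 in het and 8.26, 3.69 and 4.28 in homo (log2 fold change 2.19 ± 0.39, FDR 0.0353). A830082K12Rik, an antisense transcript, had 1.65, 2.13 and 1.85 CPM in WT, 3.79, 3.72 and 3.71 in het and 3.93, 5.45 and 4.66 in homo (log2 fold change 1.30 ± 0.24, FDR 0.0376). Het libraries lay above WT in Slc6a13 and A830082K12Rik, while 1 het library of Wdfy1 lay within the WT range. Without WT replicate 1 Slc6a13 kept its call (FDR 0.0329), and Wdfy1 (FDR 0.0781) and A830082K12Rik (FDR 0.0822) lost it. Over the 6 fits that left out a library Slc6a13 kept its call in 1 (FDR up to 0.15), and Wdfy1 (FDR up to 0.351) and A830082K12Rik (FDR up to 0.327) in 0. All 3 lost it with the 9 Cryab libraries alone (FDR 0.121, 0.344 and 0.117). A830082K12Rik was counted with a strand setting that was not given, and its overlap with exons on the other strand was not examined. Whether reads of the other strand entered its count is therefore not known.

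**Figure D2:**
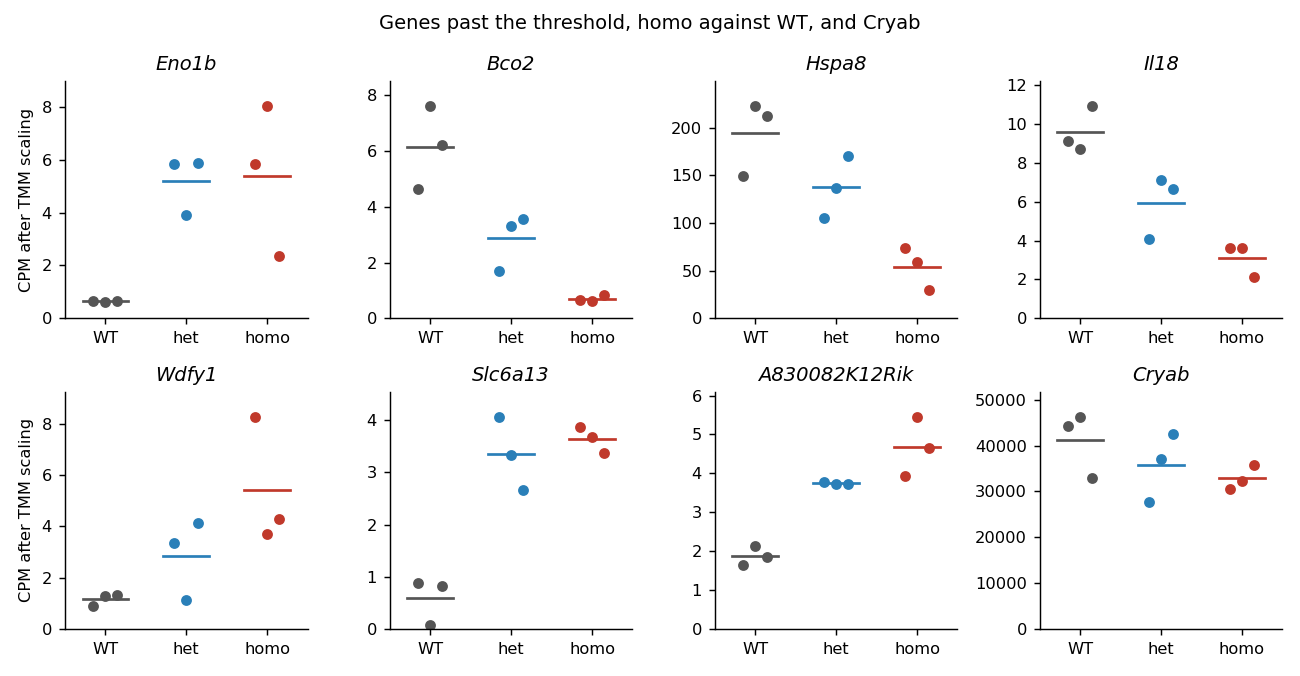
CPM after TMM scaling in each of the 3 WT, 3 het and 3 homo libraries for the 7 genes past the threshold and for Cryab, with points for libraries and lines for group means. Bco2, Hspa8 and Il18 stepped down from WT to homo with het means between, Eno1b was raised alike in het and homo, and the Cryab ranges overlapped.

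Just outside the threshold stood a pair of genes with an FDR of 0.0509. Gm11942, a processed pseudogene whose reads may belong to a parent gene, was counted 2, 4 and 3 times in WT, 286, 6 and 305 in het and 717, 991 and 287 in homo. Het replicate 2 was at the WT level, while the other het libraries were near homo. Layn, which encodes a membrane receptor for hyaluronan, had 1.32, 1.94 and 1.78 CPM in WT, 2.52, 3.78 and 5.75 in het and 5.24, 6.49 and 6.19 in homo (log2 fold change 1.81 ± 0.35), and it passed with the replicate number as a block (FDR 0.0327). Gcg, the gene of proglucagon, had 113, 72.5 and 85 CPM in WT, 44, 55.7 and 59.1 in het and 30.7, 25.2 and 34.2 in homo (log2 fold change -1.58 ± 0.33, FDR 0.119, and FDR 0.0329 with the block). The ranges of the 3 groups did not touch for Gcg.

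Genes with differences between homo and WT were more frequent near Cryab than elsewhere. Of the 31 tested genes that start within 2 Mb of Cryab, 8 (25.8%) had an unadjusted p under 0.05, 4 higher and 4 lower, where the share over all genes was 6.1%. The share was 17.5% of 80 genes within 5 Mb, 13.9% of 180 within 10 Mb, 11.1% of 298 within 20 Mb and 9.65% of 425 within 30 Mb, and 5.87% of the other 358 genes of chromosome 9. All 3 genes that fell past the threshold, Bco2, Il18 and Hspa8, lie within 10 Mb of Cryab, a region that holds 180 of the 13938 genes. The shares are descriptions, since neighbouring genes share libraries and no test of position was made. Without WT replicate 1 the shares were 25% within 2 Mb and 15% within 10 Mb, beside 8.62% of all genes. Over the 6 fits that left out a library the share within 2 Mb lay between 15.6 and 28.1%, lowest without homo replicate 1, and in each of these fits it was above the share over all genes.

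The genes within 2 Mb moved in both directions. Besides Bco2, Il18 and Layn they were Pts, an enzyme of biopterin synthesis (log2 fold change -0.57 ± 0.20), Dixdc1, a Wnt pathway protein (0.55 ± 0.21), 2310030G06Rik (-0.99 ± 0.30), Arhgap20, a GTPase activator (2.11 ± 1.01), and Fdx1, a mitochondrial ferredoxin (0.79 ± 0.36). Arhgap20 was counted 4, 0 and 0 times in WT and 15, 3 and 5 times in homo, and its fitted value was 6.61 without WT replicate 1, where it depends on the prior count. None of these 5 passed the threshold, with FDR from 0.532 to 0.814. 2310030G06Rik had 7.38, 11.2 and 9.28 CPM in WT, 5.41, 7.76 and 9.53 in het and 5.04, 5.5 and 3.44 in homo. The het mean lay between the WT and homo means in all 8 of these genes, and in 23 of the 25 genes within 10 Mb, beside 691 (81.3%) of the 850 genes with an unadjusted p under 0.05. Between homo and het, 9.68% of the genes within 2 Mb and 5.56% of those within 10 Mb had an unadjusted p under 0.05, beside 1.97% of all genes. This comparison shares its homo libraries with the first one.

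**Figure D3:**
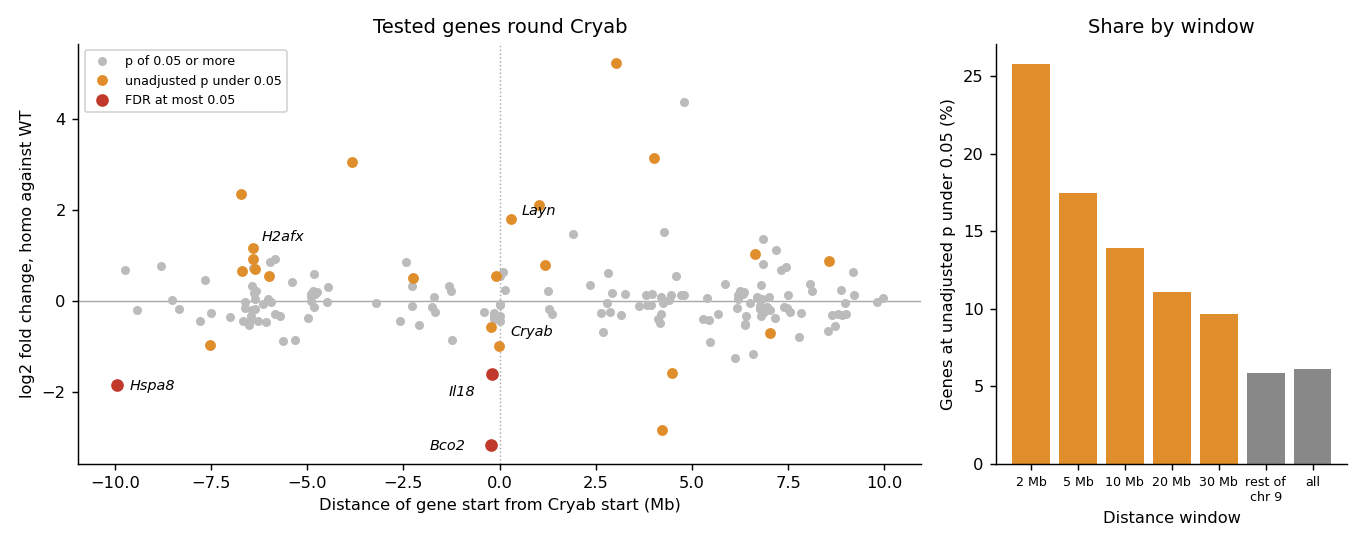
Left, log2 fold change of homo against WT for the 180 tested genes that start within 10 Mb of Cryab, by distance from the Cryab start in Mb, coloured by unadjusted p and FDR. Right, percent of tested genes with an unadjusted p under 0.05 in windows of growing size, on the rest of chromosome 9 and over all genes, falling from 25.8% within 2 Mb to 6.1% over all genes.

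H2afx, the histone variant that is phosphorylated at DNA breaks, starts 6.42 Mb from Cryab. It had 8.37, 2.47 and 3.56 CPM in WT, 5.59, 6.13 and 7.01 in het and 10.1, 11.8 and 9.4 in homo, and every homo library was above every WT library. Its log2 fold change was 1.16 ± 0.33 (FDR 0.452), and without WT replicate 1 it was 1.80 ± 0.31 and past the threshold (FDR 0.0225). Vps11, a subunit of the complexes that tether endosomes and lysosomes, starts 6.4 Mb from Cryab and had 3.31, 6.0 and 3.27 CPM in WT and 8.78, 8.64 and 6.8 in homo (log2 fold change 0.93 ± 0.26, FDR 0.423). Bfsp2, the gene of a beaded filament protein particular to fibre cells and also on chromosome 9, had 6373, 8371 and 5802 CPM in WT, 2552, 6234 and 4602 in het and 2962, 341 and 5923 in homo. Homo replicate 2 was far below the others while homo replicate 3 was at the WT level, and the log2 fold change of -1.15 ± 0.66 did not pass (FDR 0.887).

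The list of pigment and ciliary epithelium genes held Slc6a13, and its other members lay mostly higher in homo. Of 20 tested members 1 rose, beside 0.0287% of all genes, 3 passed as higher with the replicate number as a block (0.0933% of all genes), 3 by DESeq2 (0.0933%) and 7 by the likelihood-ratio test (1.61%), which also called 1 lower (0.237%). By unadjusted p 9 were higher and 1 lower at p under 0.05, beside 3.45% and 2.65% of all genes. The median log2 fold change was 1.77, beside 0.0042 over all genes, and 2.07 without WT replicate 1, which did not stand apart for this list. The summed CPM was 44.8, 38.4 and 42.6 in WT, 105, 69.6 and 48.2 in het and 78.4, 65.1 and 48.3 in homo, so that both mutant groups lay above WT.

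Rgr, an opsin of pigment epithelium and Muller glia, had 0.441, 0.601 and 0.668 CPM in WT, 8.47, 4.5 and 2.38 in het and 6.22, 4.73 and 2.68 in homo (log2 fold change 2.96 ± 0.62, FDR 0.119, and past the threshold with the block at FDR 0.0125). Ttr, the thyroid hormone and retinol carrier transthyretin, had 2.97, 2.8 and 3.49 CPM in WT, 25.4, 9.72 and 9.88 in het and 15.2, 12.1 and 7.88 in homo (log2 fold change 1.92 ± 0.50, FDR 0.41, and FDR 0.0342 with the block). The melanin pathway genes Dct, with 0.661, 1.53 and 1.48 CPM in WT, 10.1, 5.16 and 2.38 in het and 5.04, 4.57 and 2.83 in homo, and Pmel, with 1.1, 1.33 and 1.11 in WT, 8.2, 5.16 and 2.31 in het and 2.95, 6.33 and 2.29 in homo, did not pass (FDR 0.385 and 0.587). Tyr, the tyrosinase gene, was counted 0, 0 and 0 times in WT, 6, 5 and 1 times in het and 4, 5 and 2 times in homo. In each of the 5 genes every homo and every het library was above every WT library. None of the 5 passed with all libraries (FDR 0.532 for Tyr). Of the 20 tested members of the list, 9 had all homo libraries above all WT libraries, beside 4.51% of all genes. In 1 member all homo libraries lay below, beside 4.5%. Slc6a13 is a member of the same list, and the part of such cells in its rise was not tested. In pooled tissue, more cells of a type and more RNA per cell cannot be told apart.

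For photoreceptor and inner retina genes the size of the fitted difference depended on WT replicate 1. In each same-numbered pair of libraries the summed CPM of both lists was higher in homo than in WT. With all libraries 0 of 36 photoreceptor genes and 0 of 37 inner retina genes were called by edgeR's quasi-likelihood test, with 1 and 10 of them higher (3.45% of all genes) and 1 and 0 lower (2.65%) at an unadjusted p under 0.05, 0 and 0 called by DESeq2, and 18 and 22 called higher by the likelihood-ratio test, beside 1.61% of all genes. The median log2 fold changes were 0.99 and 1.59. With the replicate number as a block they were 1.63 and 1.93, with 0 and 2 genes called higher, beside 0.0933% of all genes. Without WT replicate 1 the medians were 3.57 and 3.71, and 34 of 36 photoreceptor genes and 31 of 38 inner retina genes were higher at an unadjusted p under 0.05, beside 6.91% of all genes, and 1 and 0 were lower, beside 1.71%. WT replicate 1 was singled out for its retinal transcripts, so higher values on leaving it out were fixed in advance and are no test of a difference. Without it 1 photoreceptor gene passed the threshold as higher, beside 0.0687% of all genes. It was Slc24a1, a cation exchanger of rods, with 15.1, 1.33 and 1.48 CPM in WT and 17.1, 9.41 and 5.43 in homo (FDR 0.0329, and 0.943 with all libraries). Crx, the transcription factor of photoreceptors, had 13, 0.267 and 0.965 CPM in WT and 27.8, 14.6 and 4.66 in homo. Pou4f1, a ganglion cell transcription factor, had 0.11, 0.267 and 0.223 CPM in WT and 1.64, 1.32 and 0.765 in homo, without an excess in WT replicate 1 (log2 fold change 2.54 ± 0.60, FDR 0.253). With the replicate number as a block the inner retina genes Calb1, a calcium-binding protein (log2 fold change 3.34, FDR 0.0438), and Slc1a3, the glial glutamate transporter (2.15, FDR 0.0421), passed the threshold. Without the block their values were 3.22 (FDR 0.618) and 1.99 (FDR 0.814). Leaving out WT replicate 1 gave 5.70 (FDR 0.0822) and 4.36 (FDR 0.104).

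The immediate-early genes turned with the same library. With all libraries 19 of 23 tested members were lower in homo at an unadjusted p under 0.05, beside 2.65% of all genes, with a median log2 fold change of -3.54. Yet 0 were called by the quasi-likelihood test and 1 by DESeq2 (lower, beside 0.043% of all genes). The likelihood-ratio test called 3 (1 higher, 2 lower), beside 1.61% and 0.237% of all genes. Without WT replicate 1 the median was 0.09, and 0 members were lower and 2 higher at an unadjusted p under 0.05, beside 1.71% and 6.91% of all genes. Atf3, a stress-induced transcription factor, had 136, 0.334 and 0.223 CPM in WT and 0.197, 0.715 and 0.229 in homo, and Nr4a1, an orphan nuclear receptor, had 21.4, 0.20 and 0.668 in WT and 0.131, 0.495 and 0 in homo. The difference between groups for these genes was that of 1 library. In the fit on every gene with at least 1 count, 22 of the 30 immediate-early genes passed the threshold as lower in homo, beside 0.373% of all genes.

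**Figure D4:**
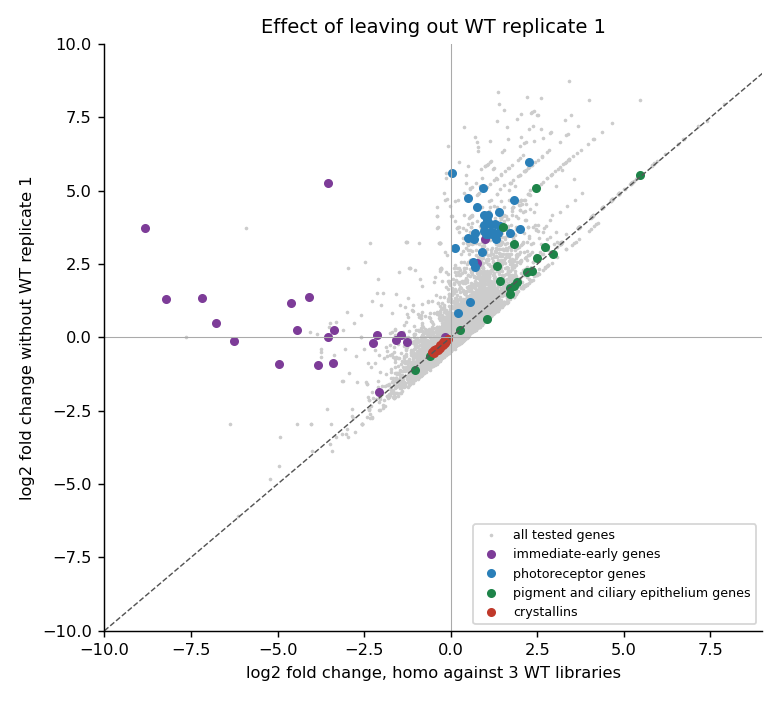
Log2 fold change of homo against WT with all 3 WT libraries (horizontal axis) and without WT replicate 1 (vertical axis), with a grey point for each tested gene, colours for 4 gene lists and a dashed line of equality. Immediate-early genes move from a median of -3.54 to 0.09 and photoreceptor genes from 0.99 to 3.57, while the crystallin median is -0.33 and -0.37, and with library size alone the first of these becomes 0.02. WT replicate 1 was singled out for its immediate-early and retinal transcripts, so the shifts of those lists follow from the choice of library.

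The crystallins, the bulk of lens protein, made up 62.8, 70.6 and 64.3% of all counts in WT and 72.5, 76.1 and 60.1% in homo, and 79.9 to 81.8% in WT and 78.4 to 82.7% in homo once Gm42418 was set aside. None of the 16 crystallin genes was called by the quasi-likelihood test (0 at an unadjusted p under 0.05, 0 by DESeq2 and 0 by the likelihood-ratio test). All 16 had log2 fold changes below 0, with a median of -0.33 and a range of -0.54 to -0.09, but under scaling by library size the median was 0.02. Cryge, a γ-crystallin, had 18320, 15770 and 18970 CPM in WT and 9704, 11920 and 14800 in homo (log2 fold change -0.54 ± 0.31, FDR 0.879). Crygs, a γ-crystallin of the outer fibres, had 42320, 45800 and 50740 CPM in WT and 26390, 41430 and 31680 in homo, and Crygc had 135800, 128700 and 137100 in WT and 87330, 114800 and 98530 in homo. For 8 of the 16, all homo libraries lay below all WT libraries on the TMM scale, beside 4.5% of all genes. The TMM factors were 0.488 to 0.545 in WT and 0.593 to 0.774 in homo, which lowers homo values against scaling by library size. The separation was not counted under library size alone, so no fall of these genes is read from it.

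Per kilobase of gene length, which allows genes to be compared, the order of the crystallins was nearly the same in both groups. In the deposited RPKM values Crygb ranked first, with 156000 ± 18300 (SD, n = 3) in WT and 156000 ± 22000 in homo, and Cryaa was next, with 119000 ± 15800 and 133000 ± 22400. Cryab had rank 10 of 16, with 17800 ± 3900 in WT and 18200 ± 1630 in homo, and Crygn was last, with 1590 ± 165 and 1860 ± 301. Crygc and Cryba1 changed places at ranks 3 and 4, with 86800 ± 2160 and 74600 ± 5900 in WT and 83300 ± 7950 and 85500 ± 16900 in homo, and in homo they differed by less than the SD of Cryba1. Crybb2 with Cryba4 at ranks 8 and 9, and Crygd with Crybb3 at ranks 11 and 12, changed places too. These values carry no TMM scaling. Cryab was lower in homo on the TMM scale and not on this one.

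The lists of other lens genes held none past the threshold of the quasi-likelihood test with all libraries. Of 22 tested fibre genes besides the crystallins 0 were called (0 higher and 1 lower at an unadjusted p under 0.05, 0 by DESeq2 and 0 by the likelihood-ratio test), with a median log2 fold change of -0.21. Grifin, a lens galectin, was the one at p under 0.05, with 1209, 1328 and 1505 CPM in WT and 823, 1104 and 914 in homo (FDR 0.814), and Mip, the fibre water channel, had 765, 887 and 836 in WT and 631, 767 and 682 in homo. Of 16 epithelium genes 0 were called (0 at an unadjusted p under 0.05, 0 by DESeq2, 1 higher by the likelihood-ratio test), and the median was -0.10. Of 17 genes of the lens capsule 0 were called with all libraries (1 higher at an unadjusted p under 0.05, 1 higher by DESeq2 and 1 by the likelihood-ratio test). Of 21 lens transcription factors 0 were called (1 higher and 1 lower at an unadjusted p under 0.05, 0 by DESeq2 and 2 higher by the likelihood-ratio test), and of 19 lens membrane transport genes 0 were called (2 higher at an unadjusted p under 0.05, 1 higher by DESeq2 and 4 higher by the likelihood-ratio test). The shares of all genes higher and lower at an unadjusted p under 0.05 were 3.45% and 2.65%, and those called higher were 0.0933% by DESeq2 and 1.61% by the likelihood-ratio test. Col18a1, a capsule collagen, had 4.52, 1.07 and 3.04 CPM in WT, 9.11, 6.2 and 5.46 in het and 7.27, 6.44 and 9.4 in homo (log2 fold change 1.47 ± 0.33, FDR 0.213), and it passed without WT replicate 1 (FDR 0.0329).

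Chaperone genes were examined because αB-crystallin is a chaperone. Of 26 cytosolic heat shock chaperones 1 fell, Hspa8, beside 0.0215% of all genes, and the others reached log2 fold changes of at most 0.34, with a list median of 0.06. The summed CPM of the list was 2568, 2732 and 2362 in WT and 2241, 2771 and 2248 in homo. Of the 5 small heat shock protein genes tested 0 were called (0 at an unadjusted p under 0.05, 0 by DESeq2 and 0 by the likelihood-ratio test), and Hspb1, the gene of Hsp25, had 158, 267 and 169 CPM in WT and 209, 293 and 183 in homo (log2 fold change 0.21 ± 0.38). Of 22 endoplasmic reticulum chaperones and unfolded protein response genes 0 were called (1 lower at an unadjusted p under 0.05, beside 2.65% of all genes, 0 by DESeq2 and 0 by the likelihood-ratio test). That gene was Dnajb9, an Hsp70 co-chaperone, with 19.4, 5.47 and 5.12 CPM in WT and 3.08, 5.0 and 3.98 in homo, with WT replicate 1 high among all 6. Hspa5, the chaperone BiP, had 452, 126 and 68.6 CPM in WT and 125, 180.1 and 67.1 in homo, and its log2 fold change went from -0.79 to 0.35 without WT replicate 1.

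Stress-response and protein-clearance lists held no gene past the threshold. Among 31 ATF4 and CHOP targets 6 were lower at an unadjusted p under 0.05, beside 2.65% of all genes (0 called by the quasi-likelihood test, 0 by DESeq2, 1 lower by the likelihood-ratio test, beside 0.237%), and 3 were lower and 1 higher without WT replicate 1, beside 1.71% and 6.91%. Chac1, a glutathione-degrading enzyme, had 7.82, 0.601 and 1.34 CPM in WT and 0.393, 0.44 and 0.153 in homo, and Nupr1, a stress-induced nuclear protein, had 3538, 4071 and 4141 in WT and 2788, 3369 and 2867 in homo. Among 31 proteasome subunits 0 had an unadjusted p under 0.05 and 0 were called by any of the 3 tests, and the log2 fold changes lay between -0.24 and 0.23. Among 30 autophagy and lysosome genes 0 were called (1 higher at an unadjusted p under 0.05, beside 3.45% of all genes, 0 by DESeq2, 1 higher by the likelihood-ratio test, beside 1.61%). Sqstm1, the autophagy receptor p62, had 66.4, 35.3 and 27.2 CPM in WT and 30.3, 34.3 and 31 in homo. Among 21 p53 targets 0 were called (3 lower at an unadjusted p under 0.05, beside 2.65% of all genes, 0 by DESeq2 and 0 by the likelihood-ratio test), and 1 was lower and 1 higher without WT replicate 1. Among 22 glutathione and NRF2 genes 0 were called (2 higher at an unadjusted p under 0.05, beside 3.45% of all genes, 0 by DESeq2 and 0 by the likelihood-ratio test), and Nfe2l2, which encodes NRF2, had 5.29, 8.47 and 6.61 CPM in WT and 10.7, 12.2 and 9.79 in homo (log2 fold change 0.67 ± 0.23, FDR 0.618).

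**Figure D5:**
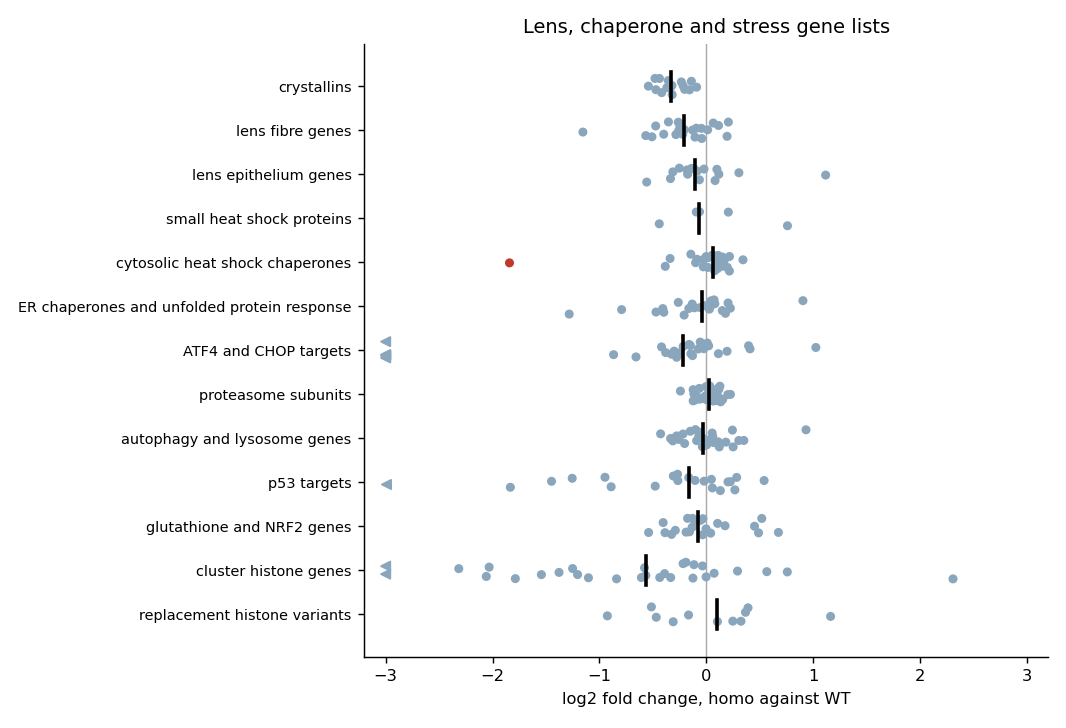
Log2 fold change of homo against WT for the tested members of 13 gene lists (points, red where the FDR is at most 0.05) with the median of each list as a bar, and values below -3 drawn as arrowheads at the edge. Hspa8 is the one member past the threshold, and the crystallin median of -0.33 becomes 0.02 with library size alone.

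Histone expression in mutant lenses was among the questions of the study. Of 29 tested cluster histone genes 0 were called (0 higher and 3 lower at an unadjusted p under 0.05, beside 3.45% and 2.65% of all genes, 0 by DESeq2 and 0 by the likelihood-ratio test), and the median log2 fold change was -0.57 with all libraries and 0 over 33 genes without WT replicate 1, where 1 was lower at an unadjusted p under 0.05, beside 1.71% of all genes. The summed CPM was 291, 185 and 186 in WT and 149.6, 169 and 160 in homo, highest in WT replicate 1. Hist1h1c, a linker histone, had 98.2, 36.6 and 30.3 CPM in WT and 31.6, 44 and 34.5 in homo. Most cluster histone transcripts lack a poly-A tail and the libraries were made with a poly-A kit, so these counts cover them in part. Of 11 replacement histone variants 0 were called with all libraries (1 higher, H2afx, and 1 lower at an unadjusted p under 0.05, 0 by DESeq2, 1 higher by the likelihood-ratio test, beside 1.61% of all genes).

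Transcripts of blood and vessel cells also varied between libraries. The summed CPM of 12 erythroid genes was 177, 47.9 and 54.5 in WT, 488, 165 and 243 in het and 80.8, 215 and 145 in homo. Hbb-bs, an adult β-globin gene whose reads may be shared with its near-identical copies, had 98.5, 10.9 and 15.5 CPM in WT and 31.4, 115 and 73.3 in homo. The summed CPM of 22 macrophage and microglia genes was 6.28, 3.34 and 2.75 in WT and 13.4, 7.81 and 4.51 in homo, with 6, 7 and 8 members without a read in WT and 4, 2 and 4 in homo. C1qb, a complement subunit made by macrophages, had 0.991, 0.133 and 0.148 CPM in WT and 2.03, 1.38 and 0.459 in homo (FDR 0.618). The erythroid, macrophage and vessel lists, with 9, 20 and 21 genes tested, held 0 genes past the threshold by the quasi-likelihood test and by DESeq2. At an unadjusted p under 0.05 there were 1, 5 and 6 higher, beside 3.45% of all genes, and 0, 1 and 0 lower, beside 2.65%. The likelihood-ratio test called 4, 3 and 2 higher and 0, 1 and 0 lower, beside 1.61% and 0.237% of all genes. WT replicate 1 was the highest WT library for the erythroid and macrophage lists. Without it the median log2 fold change went from 0.83 to 2.21 for the erythroid list and from 0.99 to 1.96 for the macrophage list, with 6 and 8 genes higher at an unadjusted p under 0.05, beside 6.91% of all genes, and 0 past the threshold. The values without WT replicate 1 were 2.47 for Hbb-bs, against 0.83 with it, and 3.17 for C1qb, against 1.82.

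No gene passed the threshold between homo and het lenses. Of 13938 genes 0 passed the threshold of the quasi-likelihood test (0%), 274 (1.97%) had an unadjusted p under 0.05, DESeq2 called 0 and the likelihood-ratio test 2. The 3 genes that fell against WT had log2 fold changes from het to homo of -2.05 ± 0.48 (Bco2), -1.34 ± 0.28 (Hspa8) and -0.92 ± 0.28 (Il18). For the genes that rose the values were 0.06 ± 0.33 (Eno1b), 0.13 ± 0.40 (Slc6a13), 0.93 ± 0.36 (Wdfy1) and 0.33 ± 0.23 (A830082K12Rik). The differences of the first 3 genes, of Wdfy1 and of A830082K12Rik exceeded their standard errors without passing the correction over all genes. Those of Eno1b and Slc6a13 were smaller than their standard errors.

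The effect of homozygosity was also compared with that in the Cryaa-R49C line. The difference between the lines passed the threshold in 406 of 13938 genes (2.91%), 244 higher (1.75%) and 162 lower (1.16%) in the Cryab line, and line and age change together, so they cannot be told apart. Leaving out replicate 1 of Cryaa-R49C-homo gave 1800 genes, and the count was 244 to 448 when any other library was left out. Of the 31 ATF4 and CHOP targets 19 differed, all lower in the Cryab line, and the median log2 fold change was -0.22 there and 2.08 in the Cryaa line. Of the 22 fibre genes 7 differed, all higher in the Cryab line, with medians of -0.21 and -1.05. Within 2 Mb of Cryab 2 of 31 genes differed (6.45%), and within 10 Mb 5 of 180 (2.78%).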

How the data were processed

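RNA from whole lenses was sequenced as poly-A libraries with single reads. The authors aligned reads to GRCm38 with STAR (2.0.4b) and counted uniquely aligned, unambiguous reads per Ensembl gene with featureCounts (1.4.5) of the Subread package. The deposited table holds raw counts per gene. The RPKM values deposited by the authors, which are scaled for gene length and depth, were used to compare levels between crystallin genes and to set their group means side by side. Whether counting used strand was not given in the sources used here.

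Counts of all 18 libraries were fitted as 6 groups with edgeR (4.0.16, R 4.3.3), after filterByExpr (13938 genes kept) and TMM scaling, with the quasi-likelihood test and Benjamini-Hochberg adjustment, and an FDR of at most 0.05 was the threshold. The SE is the absolute log2 fold change divided by the square root of the F statistic of that test. It therefore rests on the spread fitted over all 18 libraries. DESeq2 (1.42.0), a likelihood-ratio test, other scalings, no filter, fewer libraries and leaving out each library were tried as alternatives. The shares of genes near Cryab without single libraries and with the block were chosen after seeing the data. Columns were matched to samples by title, and the genotype field was not used.

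Same-numbered WT and homo libraries deviated together (r = 0.277, 0.176 and 0.156 across genes), so the replicate number, which comes from the labels alone, was also used as a block. Named genes were Cryab, Cryaa and Hspb2, genes past the threshold or among the smallest p, genes past it with the block, genes within 2 Mb of Cryab, the leading members of each list by p or level, and genes the study names. Crx, Slc24a1, Eno1, Junb, Pmel, Tyr, Crybb2, Crybb3, Cryba4, Crygd, Crygn and Gm42418 fall outside this rule and were chosen after their values were seen. The members and lists were chosen with earlier results of these data known. Promoter windows came from RefSeq (GRCm38.p6).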

Additional observations from a re-analysis of the deposited data

Results flagged for a closer look

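The effect of homozygosity differed between the Cryab-R120G line and the Cryaa-R49C line in 18 of the 56 named genes compared, by the interaction term of edgeR's quasi-likelihood fit across all genes. Over all genes the share was 2.91%. Part of the 56 were named for a small p in the Cryab line, whose values enter this difference, so the shares are not a test. Each value below is the log2 fold change of homo against WT in the Cryab line minus that in the Cryaa line, followed by the values in the Cryab and Cryaa lines. Line and age (14 and 2 days) cannot be told apart in these differences.

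Among the genes past the threshold in the Cryab line the differences were Eno1b by 4.09 (3.08 and -1.01), Slc6a13 by 4.32 (2.71 and -1.62), Il18 by -2.36 (-1.61 and 0.75), Hspa8 by -1.72 (-1.84 and -0.13) and Wdfy1 by 2.18 (2.19 and 0.01). The neighbour of Cryab and the pseudogene that lay just outside the threshold differed too, Layn by 2.75 (1.81 and -0.94) and Gm11942 by 8.92 (7.40 and -1.52). Chaperone and stress genes were Hspb1 by 5.71 (0.21 and -5.51), Chac1 by -11.56 (-3.13 and 8.43), Sqstm1 by -2.90 (-0.43 and 2.48), Nupr1 by -2.46 (-0.38 and 2.08), Dnajb9 by -2.66 (-1.28 and 1.38) and Atf3 by -12.29 (-6.79 and 5.50), and the linker histone was Hist1h1c by -2.07 (-0.58 and 1.49). In the Cryaa line the fitted value of Hspb1 was below 0, and the fitted values of the other 5 were above 0, in homo against WT. WT replicate 1 was the highest of the 6 Cryab libraries for Chac1, Dnajb9, Atf3, Hist1h1c and Sqstm1, whose Cryab values without it were -1.47, -0.39, 0.50, 0.14 and 0.03. Pigment and retinal genes were Pmel by 3.73 (1.71 and -2.02), Tyr by 7.27 (5.47 and -1.79), Dct by 2.38 (1.71 and -0.67) and Pou4f1 by 3.03 (2.54 and -0.49). In these 4 the homo libraries were higher than WT in the Cryab line and the fitted value was below 0 in the Cryaa line. Tyr was counted 5 times or fewer in each of the 6 Cryab homo and WT libraries, so its fitted value depends on the prior count.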

How the results depend on the processing

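The number of genes past the threshold between homo and WT depended on the processing, being 7 as reported, 302 with every gene with at least 1 count tested, 257 with the likelihood-ratio test and robust dispersions, 19 with DESeq2 and 2 with the 6 compared libraries alone, 1 of them among the 7. With the 9 Cryab libraries alone it was 7, of which 3 were among those reported, and Hspa8, Wdfy1, Slc6a13 and A830082K12Rik lost the call. It was 1 to 13 when a library was left out, highest without WT replicate 1, 1 without WT replicate 2, homo replicate 2 or homo replicate 3, 2 without homo replicate 1 and 4 without WT replicate 3. With the replicate number as a block it was 18, 13 higher and 5 lower, and the block left homo against het at 0 and gave 481 for the difference between the lines. Homo against het gave 15 genes with every gene tested, 2 with the likelihood-ratio test and 0 in each fit that left out a library. The difference between the lines gave 798 genes with every gene tested, 255 with library size alone, 626 with DESeq2, 1454 with the likelihood-ratio test and 244 to 1800 when a library was left out, and it could not be fitted with the Cryab libraries alone. The cause of these shifts was not tested.

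Of 770 values of named genes under an alternative, 15 turned their direction, none of them among the genes past the threshold, for which 57 of 98 values kept the call and 41 lost it. Under scaling by library size the log2 fold changes were 0.032 for Cryab, 0.16 for Cryaa, 0.28 for Hspb2, 0.20 for Cryba1, 0.10 for Mip and 0.15 for Eno1. When a library was left out they ranged from -0.18 to 0.033 for Hspb2, -8.80 to 1.30 for Fos, -12.54 to 3.71 for Fosb, -8.51 to 1.33 for Junb, -7.69 to 0.50 for Atf3, -0.87 to 0.14 for Hist1h1c, -1.22 to 0.35 for Hspa5, -0.67 to 0.029 for Sqstm1 and -0.014 to 0.48 for Hspb1, with the highest value without WT replicate 1 for the first 8 and the lowest without homo replicate 2 for Hspb1.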
